A study of Mus musculus with 6 samples.

Results

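Receptor tyrosine kinases other than Kit were followed in 3 mouse cell lines derived from the immortalized melanocytes called melan-a. The group was a list of 45 genes named by their membership of this family, and 43 of them had a probe set, 1 each, among the 22206 gene probe sets of the Affymetrix Clariom S array. Pdgfra and Ephb2 had none in the probe annotation, so their expression is not analysed here. The measured genes were 10 Eph receptors, 21 growth factor receptors and 12 other receptors, which bind WNT proteins, collagen, angiopoietins, the bridging proteins Gas6 and Pros1, or the ligands of Alk and Ltk. There were 3 groups of 2 arrays. The mKitK641E(T) line, called T here, and the mKitK641E(PT) line, called PT, are labelled as melanoma cells with the activated Kit mutant K641E and are called the Kit-labelled lines here. The mVec line is labelled as melanocytes with the CD516B2 control vector. All 3 lines have the C57BL/6J background and were grown untreated in RPMI with serum. Titles add C3# for T and hi exp for PT, and no source used here explains T, PT or these additions. Each group is 1 line, and the labels do not say whether its arrays come from separate cultures. The errors and p-values thus cover only how far arrays of the same line lie apart, a spread that may be technical. This spread is pooled over the 3 lines and drawn towards that of all gene probe sets.

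Receptor tyrosine kinases are single-pass membrane proteins whose ligand brings receptors together, so that their kinase domains phosphorylate each other and recruit adaptors to the ERK and PI3-kinase pathways. Growth factor receptors of the ErbB, Met, PDGF, FGF, VEGF and insulin families mostly answer soluble factors. Eph receptors bind ephrins held on the membrane of a neighbouring cell and are known for steering cell repulsion, adhesion and migration, also of neural crest cells, from which melanocytes arise.

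The values are the log2 values that the authors deposited, and no probe set's level is compared with that of another gene. Each array has 5222 negative-control probe sets, and their 95th percentile on that array, 8.74 to 9.16, served as a background limit. A line whose arrays both lie at or under their limits is said to be at background. If that holds for the dimmer of the lines compared, the fold is taken against the limit and given as "at least", and if it holds for both lines no fold is given. Differences come with the standard error of a limma fit over all gene probe sets and are called at a Benjamini-Hochberg adjusted p under 0.05. Between 29.0% and 32.6% of gene probe sets per array were above the limit. Kit was at background in all 3 groups, with means of 4.86 in T, 4.19 in PT and 4.82 in the mVec line. It was not called in any comparison, so the lowest mean, in PT, the line titled hi exp, is not read as a difference. Its values do not bear out the labels that name an introduced Kit, and whether the probe set reads the introduced copy was not tested. All directions below rest on those labels. Of the 8 melanocyte markers, Tyr, Tyrp1, Dct, Pmel, Mlana, Sox10 and Slc45a2 were at background on every array, against the label of the cells, and Mitf, called higher in both Kit-labelled lines, was above the limit on the T arrays alone.

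In T, 3 of the 43 receptors were called higher than in mVec and 19 lower, against 16.9% of all gene probe sets called higher and 15.5% called lower (32.4% in all). In PT, 3 receptors were called higher and 19 lower, against 17.9% higher and 18.0% lower over the whole table (35.9% in all). Called receptors thus made up 51.2% of those measured in either comparison. The share of all calls that were higher, 52.3% in T and 49.9% in PT, was 62.3% and 60.3% once array medians were centred. Both comparisons use the same 2 mVec arrays, so their values are given side by side and not as independent results. The median difference over the receptors was -0.40 in T and -0.23 in PT, beside 0.01 and 0.08 over all gene probe sets. These medians include 26 receptors at background in all lines, and no shift of the family is read from them. Of the 43 receptors, 15 were above the limit on both arrays of at least 1 line, 10 of them in T, 10 in PT and all 15 in mVec. In these bulk RNA samples, fewer cells of a type and less RNA per cell cannot be told apart.

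The Eph receptors split into 1 that was higher and 6 that were lower in both Kit-labelled lines. Epha2, which binds mainly ephrin-A ligands, was 13.6-fold higher in T and 34.6-fold higher in PT than in mVec, while Epha3, Epha4, Epha7, Ephb3, Ephb4 and Ephb6 were lower. The promoters of Epha2 and Epha4, which differ in direction, and of Mertk, which had the largest difference of any receptor, are shown from 250 bases before to 50 after the start of the gene. The sequences are those of RefSeq for GRCm38.p6, 5′ to 3′ on the strand of the gene, with the GC box GGGCGG or its complement CCGCCC in capitals.
Epha2 (chr4:141300971-141301270, + strand): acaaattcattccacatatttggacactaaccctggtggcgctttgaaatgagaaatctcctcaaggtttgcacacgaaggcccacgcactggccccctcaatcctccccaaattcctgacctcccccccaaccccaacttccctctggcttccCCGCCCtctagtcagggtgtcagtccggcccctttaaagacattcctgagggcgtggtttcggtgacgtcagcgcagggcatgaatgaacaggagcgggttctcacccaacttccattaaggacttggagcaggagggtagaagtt
Epha4 (chr1:77515039-77515338, - strand): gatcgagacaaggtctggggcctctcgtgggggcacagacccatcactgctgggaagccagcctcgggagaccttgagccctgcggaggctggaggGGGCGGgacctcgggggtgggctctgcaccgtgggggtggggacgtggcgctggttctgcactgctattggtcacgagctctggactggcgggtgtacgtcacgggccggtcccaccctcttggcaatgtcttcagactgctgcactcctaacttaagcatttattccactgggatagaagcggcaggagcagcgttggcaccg
Mertk (chr2:128698665-128698964, + strand): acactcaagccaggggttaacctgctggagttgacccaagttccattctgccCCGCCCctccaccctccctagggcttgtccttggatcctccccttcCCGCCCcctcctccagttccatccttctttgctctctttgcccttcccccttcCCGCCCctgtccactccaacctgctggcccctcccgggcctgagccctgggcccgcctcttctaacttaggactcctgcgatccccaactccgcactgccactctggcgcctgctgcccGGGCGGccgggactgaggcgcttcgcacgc
The GC box occurred once in the window of Epha2, once in that of Epha4 and 4 times in that of Mertk, searched on both strands. It was held by 35.7% of all 32851 windows in the RefSeq table and by 31 of the 44 windows of receptors. The window of Epha2 had 10 CpG dinucleotides, that of Epha4 17 and that of Mertk 14, beside a median of 7 over all windows and 18.5 over the 44 windows found for 38 of the 45 receptors. The 44 include the windows of Pdgfra and Ephb2, which have no expression values here. None of the 3 windows held TGANTCA, the AP-1 motif, or the E-boxes CACGTG and CATGTG, on either strand, and these were found in 7.81%, 7.15% and 14.2% of all windows. These matches describe letters in a window and say nothing of a factor.

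Epha2 (probe set TC0400001785.mm.2) read 13.53 and 13.68 on the T arrays, 14.74 and 15.16 on the PT arrays, and 9.81 and 9.86 on the mVec arrays. All 6 arrays were above the limit, the groups did not overlap, and the PT arrays were the highest. The difference from mVec was 3.77 ± 0.22 in T (limma adjusted p = 1.2e-06) and 5.11 ± 0.22 in PT (adjusted p = 1.39e-07). Ephb4, the receptor of ephrin-B2, went the other way and read 8.15 and 8.62 on the T arrays, 7.56 and 8.35 on the PT arrays, and 9.56 and 9.82 on the mVec arrays. It was above the limit in mVec alone, lower by at least 1.81-fold in T (-1.31 ± 0.29, adjusted p = 0.00646) and by at least 1.60-fold in PT (-1.74 ± 0.29, adjusted p = 0.000966). Its call in T missed the threshold without mVec replicate 2 (adjusted p = 0.0502).

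The other 5 lower Eph receptors were at or near background in mVec and further below it in the Kit-labelled lines. Epha3 read 4.16 and 3.62 on the T arrays, 4.22 and 4.05 on the PT arrays, and 7.69 and 8.08 on the mVec arrays, a difference of -4.00 ± 0.25 in T and -3.75 ± 0.25 in PT. Epha4, which binds ephrins of both classes, read 3.73 and 3.79 on the T arrays, 3.69 and 3.69 on the PT arrays, and 8.12 and 7.40 on the mVec arrays (-4.00 ± 0.26 in T and -4.07 ± 0.26 in PT). Epha7 read 4.43 and 5.32 on the T arrays, 5.42 and 5.03 on the PT arrays, and 9.28 and 8.65 on the mVec arrays, where 1 of the 2 arrays was above its limit. In each of these 3 genes every T and PT array lay at least 3 log2 units below both mVec arrays. Ephb3 averaged 5.61 in T, 5.51 in PT and 8.84 in the mVec line, and Ephb6, whose kinase domain is inactive, averaged 4.55 in T, 4.18 in PT and 7.67 in mVec. All 5 were called lower in both comparisons, with adjusted p-values from 1.31e-06 to 0.000242, and for Epha3, Epha4, Ephb3 and Ephb6 both groups were at background. Epha1, Epha5 and Ephb1 were at background throughout and were not called, with differences between -0.27 and 0.40 in T and between -0.26 and 0.29 in PT.

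**Figure D1:**
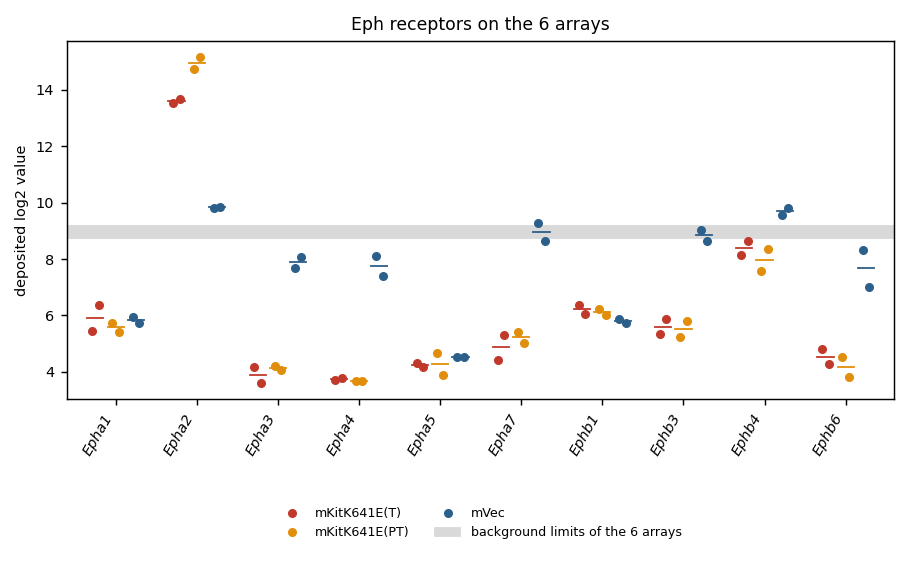
Deposited log2 values of the 10 measured Eph receptors on the 6 arrays, with a dot for each array of T (red), PT (orange) and mVec (blue), a bar for the group mean and a grey band for the background limits of 8.74 to 9.16. Epha2 is above the band in all 3 lines and higher in T and PT, while Ephb4 is above it in mVec alone.

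Among the growth factor receptors, 7 that were above background in mVec were lower in both Kit-labelled lines: Egfr, Erbb2, Met, Pdgfrb, Flt1, Fgfr1 and Igf1r. Egfr and Erbb2 were above it in mVec alone, the line where they are high. Of the 7836 probe sets above the limit on both arrays of a line, most were called against mVec when only these were tested. They numbered 5670 in T and 5962 in PT, in either direction, so the count of 7 is not read as particular to these receptors. Insr, the remaining growth factor receptor above background, was not called in either line. Egfr, the receptor of EGF, read 7.43 and 7.48 on the T arrays, 7.57 and 7.54 on the PT arrays, and 11.42 and 11.20 on the mVec arrays. It was at background in both Kit-labelled lines, lower by at least 5.55-fold in T (-3.85 ± 0.20, limma adjusted p = 6.36e-07) and by at least 4.90-fold in PT (-3.75 ± 0.20, adjusted p = 4.97e-07). Erbb2, a partner of the other ErbB receptors that has no known ligand of its own, read 8.04 and 8.45 on the T arrays, 6.93 and 7.13 on the PT arrays, and 9.74 and 9.52 on the mVec arrays. It was lower by at least 1.74-fold in T and by at least 1.54-fold in PT, bounds that also carry the different limits of the arrays. Its measured differences were -1.38 ± 0.23 in T and -2.60 ± 0.23 in PT.

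Met, the receptor of hepatocyte growth factor, stayed above background in every line and read 10.35 and 10.39 on the T arrays, 10.40 and 10.53 on the PT arrays, and 12.89 and 12.82 on the mVec arrays. It was 5.61-fold lower in T (-2.49 ± 0.20, limma adjusted p = 7.96e-06) and 5.24-fold lower in PT (-2.39 ± 0.20, adjusted p = 7.22e-06), and the Kit-labelled lines lay close together. Pdgfrb, the PDGF receptor of mesenchymal cells and pericytes, read 12.08 and 12.31 on the T arrays, 11.40 and 11.76 on the PT arrays, and 14.53 and 14.57 on the mVec arrays. It was 5.13-fold lower in T (-2.36 ± 0.22) and 7.85-fold lower in PT (-2.97 ± 0.22). Both Kit-labelled lines kept Pdgfrb well above the limit, and no array of theirs reached an mVec array.

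Flt1, a VEGF receptor, read 10.12 and 9.76 on the T arrays, 10.15 and 10.51 on the PT arrays, and 11.82 and 11.90 on the mVec arrays, which was 3.79-fold lower in T (-1.92 ± 0.23) and 2.89-fold lower in PT (-1.53 ± 0.23). Fgfr1, a receptor of fibroblast growth factors, read 9.67 and 10.40 on the T arrays, 9.28 and 10.11 on the PT arrays, and 11.82 and 12.05 on the mVec arrays, 3.73-fold lower in T (-1.90 ± 0.32) and 4.73-fold lower in PT (-2.24 ± 0.32). The arrays of T and PT overlapped for Fgfr1 and none reached mVec. Igf1r, the receptor of insulin-like growth factors, read 9.77 and 10.11 on the T arrays, 9.99 and 9.94 on the PT arrays, and 11.26 and 11.35 on the mVec arrays, 2.57-fold lower in T (-1.36 ± 0.21) and 2.53-fold lower in PT (-1.34 ± 0.21). Insr, the insulin receptor of the same family, read 12.97 and 13.35 on the T arrays, 12.62 and 12.84 on the PT arrays, and 12.64 and 12.77 on the mVec arrays. Its difference was 0.45 in T, with a 95% interval from -0.05 to 0.95, and 0.02 in PT, with an interval from -0.48 to 0.52. The sign in PT turned under quantile normalization (-0.15), without PT replicate 2 (-0.092) and without mVec replicate 1 (-0.043).

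The remaining 13 measured growth factor receptors were at background on all arrays. Fgfr3 was called lower in both lines, with means of 5.49 in T, 5.50 in PT and 7.07 in the mVec line, and Fgfr2 in PT alone (4.51 in T, 3.68 in PT and 5.32 in mVec). Flt3, a receptor of blood progenitors, was called higher with means of 3.91 in T, 4.54 in PT and 3.19 in mVec, all far below the limits. The call of Flt3 in T was lost in 8 of its 14 alternatives, with adjusted p-values up to 0.238, among them the replicate block (0.0536). Erbb3, Erbb4, Mst1r, Csf1r, Kdr, Flt4, Fgfr4, Ntrk2, Ntrk3 and Ret were not called in either line.

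**Figure D2:**
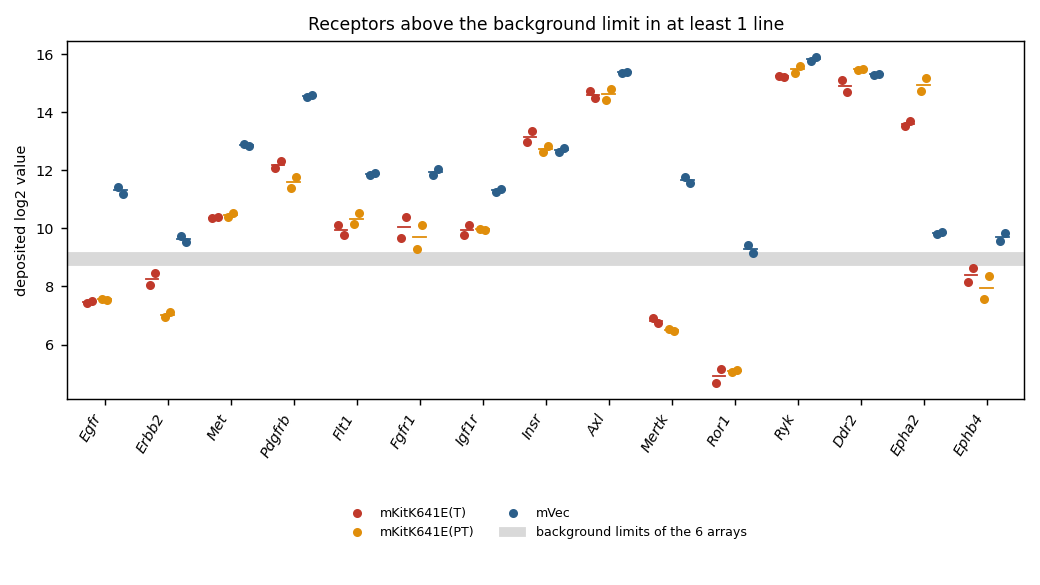
Deposited log2 values of the 15 receptors above the background limit on both arrays of at least 1 line, with a dot for each array of T (red), PT (orange) and mVec (blue), a bar for the group mean and a grey band for the background limits of 8.74 to 9.16. Egfr, Erbb2, Mertk and Ephb4 are above the band in mVec and below it in T and PT, Ror1 is at its upper edge in mVec and below it in T and PT, and Epha2 is the receptor among them that was called higher in T and PT.

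Set side by side, 1 of 10 Eph receptors was higher and 6 lower in T, and 1 of 21 growth factor receptors was higher and 8 lower. In PT the counts were 1 higher and 6 lower Eph receptors and 1 higher and 9 lower growth factor receptors. The shares called in T were 70% of Eph receptors and 42.9% of growth factor receptors, against 32.4% of all gene probe sets. The shares called in PT were 70% and 47.6%, against 35.9%. The median difference was -2.22 for Eph receptors and -0.33 for growth factor receptors in T, and -2.53 and -0.16 in PT. The gap between the class medians, -1.88 in T and -2.37 in PT, comes largely from values at background: 7 of the 10 Eph receptors were at background in all lines. The 2 Eph receptors above the limit in a line, Epha2 and Ephb4, differed from mVec in opposite directions. With every value raised to the limit of its array, the medians of both classes were the same, -0.17 in T and 0.01 in PT. This was fixed in advance, since 13 of the 21 growth factor receptors were also at background in all lines. Such medians only repeat the difference between the limits of the arrays, and nothing is read from them. These counts and medians describe the lists, and the difference between the classes was not tested.

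**Figure D3:**
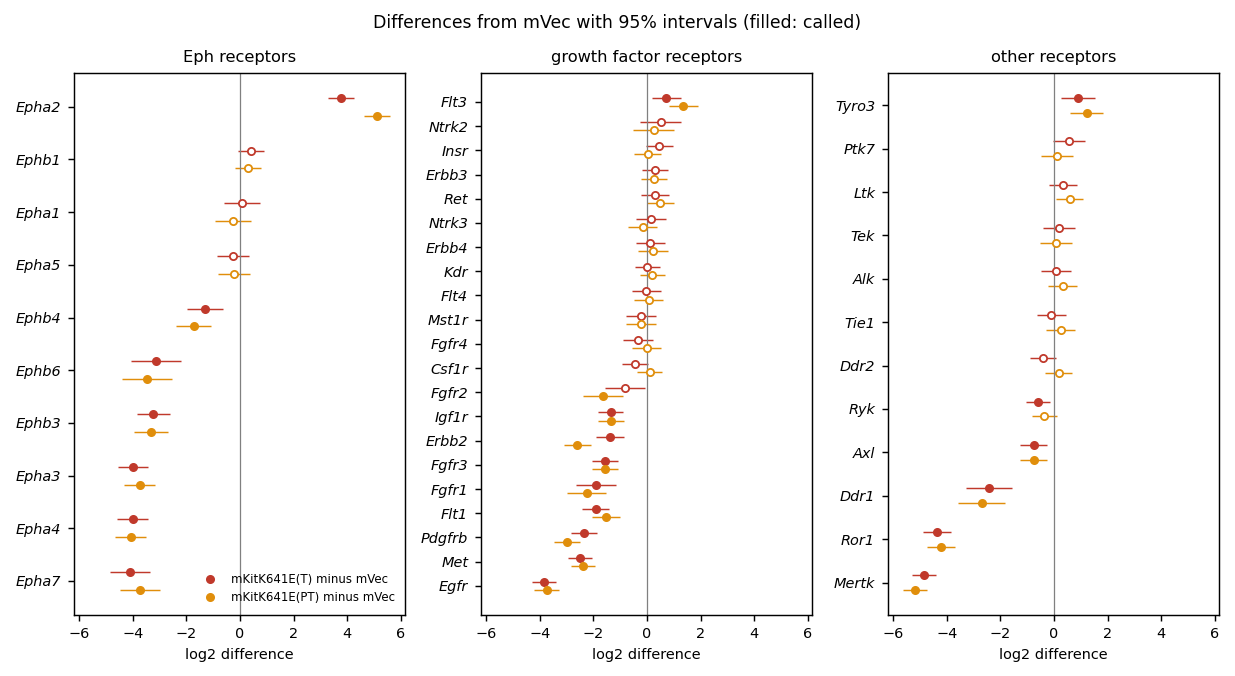
Log2 differences from mVec of the 43 measured receptors in T (red) and PT (orange), by class, with 95% intervals of the limma fit and filled dots for called values. Epha2 stands at 3.77 in T and 5.11 in PT, apart from the other Eph receptors, and the growth factor receptors run down to -3.85 in T and -3.75 in PT for Egfr.

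Of the other receptors, Mertk and Ror1 exceeded the limit in mVec and fell under it in both Kit-labelled lines. Mertk, a TAM receptor that binds Gas6 and Pros1 and is known for the uptake of dying cells, read 6.90 and 6.74 on the T arrays, 6.52 and 6.45 on the PT arrays, and 11.76 and 11.56 on the mVec arrays. It was lower by at least 7.10-fold in T (-4.84 ± 0.20, limma adjusted p = 1.81e-07) and by at least 6.27-fold in PT (-5.18 ± 0.20, adjusted p = 8.04e-08). Ror1, a receptor of Wnt5a, read 4.68 and 5.17 on the T arrays, 5.04 and 5.12 on the PT arrays, and 9.41 and 9.14 on the mVec arrays. It was close to the limit in mVec, so the bounds are small, lower by at least 1.36-fold in T and by at least 1.20-fold in PT, beside measured differences of -4.35 ± 0.23 and -4.20 ± 0.23.

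Axl, another TAM receptor, read 14.72 and 14.49 on the T arrays, 14.41 and 14.80 on the PT arrays, and 15.35 and 15.38 on the mVec arrays. It was 1.69-fold lower in both T (-0.76 ± 0.22, limma adjusted p = 0.0241) and PT (-0.76 ± 0.22, adjusted p = 0.0222). With array medians centred, the Axl differences were -0.58 in T (adjusted p = 0.0829) and -0.57 in PT (adjusted p = 0.0763), and neither call held. Nor did they hold without mVec replicate 1 (0.0985 in T and 0.091 in PT), without mVec replicate 2 (0.115 and 0.106), without T replicate 2 (0.115 in T) or without PT replicate 1 (0.151 in PT). Tyro3, the remaining TAM receptor, was called higher at background, with means of 5.95 in T, 6.28 in PT and 5.06 in the mVec line, and lost its call in T when either T array or either mVec array was left out (adjusted p from 0.054 to 0.192). Its call in PT was lost without mVec replicate 1 (adjusted p = 0.0512).

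Ryk, a WNT receptor with an inactive kinase domain, read 15.26 and 15.21 on the T arrays, 15.36 and 15.59 on the PT arrays, and 15.77 and 15.90 on the mVec arrays. It was 1.52-fold lower in T (-0.60 ± 0.20, limma adjusted p = 0.0476), a call lost in 10 of its 16 alternatives (adjusted p up to 0.222), among them the replicate block (0.0513) and the leaving out of each of the 6 arrays in turn. In PT its difference was -0.36 ± 0.20 (adjusted p = 0.22), and with a mean-variance trend in the fit it was called (0.0381). Of the collagen receptors, Ddr2 read 15.11 and 14.69 on the T arrays, 15.45 and 15.49 on the PT arrays, and 15.28 and 15.31 on the mVec arrays, and was not called, with 95% intervals from -0.89 to 0.09 in T and from -0.32 to 0.66 in PT. Ddr1 was called lower in both lines, with means of 6.14 in T, 5.87 in PT and 8.57 in mVec, where 1 of the 2 arrays was above its limit (9.18) and the other not (7.96). Ptk7, the angiopoietin receptors Tek and Tie1, Alk and Ltk were at background throughout and not called. In all, 20 receptors were called in neither comparison with mVec, and 18 of these were at background on all arrays, with values between 3.28 and 6.38.

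T and PT were then compared with each other, which asks whether the Kit-labelled lines differ in these receptors. The call rate over the whole table was 8.36%, with 5.67% of gene probe sets higher and 2.70% lower in T. Among the 43 receptors, 1 was higher in T and 1 lower. Epha2 was 2.54-fold lower in T than in PT (-1.35 ± 0.22, limma adjusted p = 0.00694), a call that missed the threshold without PT replicate 2 (-1.14, adjusted p = 0.0533). Erbb2 was higher in T with both lines at background (1.22 ± 0.23, adjusted p = 0.0122), and was not called without PT replicate 1 (0.0946), PT replicate 2 (0.0515) or T replicate 2 (0.08). The differences of the other 41 receptors lay between -0.63 and 0.83. Pdgfrb (0.61, adjusted p = 0.129) was called higher in T when probe sets at background were left out (adjusted p = 0.0385).

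Ligands of these receptors were read from lists of pathway genes. Of 8 ephrins, 1 was higher and 5 lower in T, and 2 were higher and 4 lower in PT. That is 75% called in either line, against 32.4% of all gene probe sets in T and 35.9% in PT, and 4 of the 8 were at background throughout. Efna1, the ligand best known for Epha2, was higher, with means of 10.40 in T, 10.95 in PT and 9.42 in mVec (0.98 ± 0.22 in T and 1.53 ± 0.22 in PT, limma adjusted p = 0.00675 and 0.000366). Efna5, Efnb1 and Efnb2 were lower in both lines, with differences from -1.07 to -0.92 in T and from -1.27 to -1.17 in PT. Efnb2, the ligand of Ephb4, averaged 12.18 in T, 11.93 in PT and 13.10 in mVec. Of the 4 ephrins above background in a line, Efna1 was the one called higher. Over the list the median difference was -0.81 in T and -0.69 in PT.

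Of 37 measured growth factor ligands, 6 were higher and 13 lower in T, and 6 were higher and 13 lower in PT, with medians of -0.31 and -0.18. Called genes made up 51.4% of the list in either line, against 32.4% of all gene probe sets in T and 35.9% in PT, and the number called higher was near the general rate of 16.9% in T and 17.9% in PT. Nrg1, a ligand of Erbb3 and Erbb4, was at least 6.16-fold higher in T and at least 14.5-fold higher in PT, with means of 11.62 in T, 12.86 in PT and 7.78 in mVec, while both its receptors were at background. Fgf1, a ligand of the FGF receptors, was lower by at least 1.89-fold in T and by at least 1.67-fold in PT. Gdnf, whose signalling receptor is Ret, averaged 10.07 in T, 9.92 in PT and 6.31 in mVec, at least 2.09-fold and at least 1.88-fold higher, while Ret was at background. Igf1, a ligand of Igf1r, was lower by at least 31.9-fold in T and by at least 28.2-fold in PT. Vegfd, a ligand of Flt4 and Kdr in humans, was lower by at least 6.99-fold in T and by at least 6.17-fold in PT. Vegfa, a ligand of Flt1, was 3.63-fold higher in T and 4.92-fold higher in PT, and Hbegf, a ligand of Egfr, 4.01-fold and 6.66-fold higher. Igf2, another ligand of Igf1r, was lower by at least 4.35-fold in T and by at least 3.85-fold in PT. Bdnf, the ligand of Ntrk2, was 4.40-fold lower in T and 6.67-fold lower in PT, with its receptor at background. Other ligands of Flt1 and Egfr did not follow Vegfa and Hbegf. Vegfb, a ligand of Flt1, was lower in PT (-2.12, limma adjusted p = 0.000744) and not called in T (-0.87, adjusted p = 0.088), and Pgf, another, was called lower at background (-1.69 in T and -1.93 in PT). Ereg, a ligand of Egfr, was above the limit in all lines and not called (-0.31 in T and 0.38 in PT), and Btc, another, was called lower at background (-1.40 in T and -1.33 in PT). Gdnf, Vegfa, Hbegf, Igf2, Bdnf, Vegfb, Pgf, Ereg and Btc lie outside the 4 largest differences of the list and were chosen after their values were seen.

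Of 11 ligands of the other receptors, 6 were called in T and 6 in PT, all of them lower, which is 54.5% of the list against 32.4% and 35.9% of all gene probe sets, with a median difference over the list of -1.76 in T and -2.04 in PT. Pros1, a ligand of Mertk and Tyro3, was lower by at least 4.35-fold in T and by at least 3.85-fold in PT, and Gas6 was at background in all lines. Both were chosen after their values were seen. Ptn, a factor reported to bind Alk, was at least 4.60-fold and at least 4.06-fold lower, and Angpt1, the ligand of Tek, at least 2.21-fold and at least 1.96-fold lower, with Alk and Tek at background. The collagen gene Col1a1, which encodes a ligand of Ddr1 and Ddr2, was lower by at least 78.8-fold in T and by at least 69.6-fold in PT. Col3a1, another collagen gene, was 101-fold lower in T, and lower by at least 111-fold in PT.

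**Figure D4:**
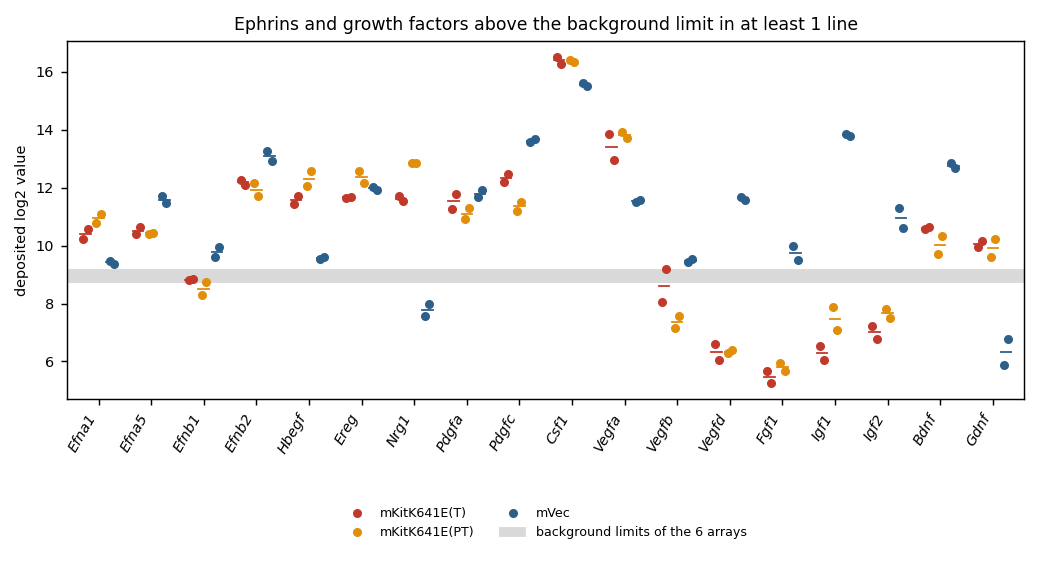
Deposited log2 values of the 4 ephrins and 14 growth factors above the background limit on both arrays of at least 1 line, with a dot for each array of T (red), PT (orange) and mVec (blue), a bar for the group mean and a grey band for the background limits of 8.74 to 9.16. Nrg1 and Gdnf are above the band in T and PT alone, and Vegfd, Fgf1, Igf1 and Igf2 in mVec alone.

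Genes that act inside the cell on these receptors were read in the same way. Of 26 measured adaptors and proximal effectors, 3 were higher and 7 lower in T, and 6 were higher and 9 lower in PT, with medians of -0.16 and -0.30. The share called was 38.5% in T, near the 32.4% of all gene probe sets, and 57.7% in PT, against 35.9%. Pik3r1, the regulatory subunit of PI3-kinase, was 6.35-fold lower in T and 14.7-fold lower in PT, Irs1, an adaptor of Igf1r and Insr, at least 4.47-fold and 3.59-fold lower, and Gab1, an adaptor of Met and Egfr, at least 1.47-fold and at least 1.30-fold lower. Gab2, a related adaptor, was lower by at least 1.60-fold in T and by at least 1.41-fold in PT. Others went the other way: Fyn was 2.57-fold higher in T and 2.01-fold higher in PT, and Ptpn11 at least 1.76-fold and at least 2.64-fold higher. Fyn and Ptpn11 were chosen after their values were seen. Of 27 measured attenuators, 3 were higher and 10 lower in T, and 3 were higher and 12 lower in PT, with medians of -0.28 and -0.56. The share called was 48.1% in T, against 32.4% of all gene probe sets, and 55.6% in PT, against 35.9%. Grb14, which inhibits the insulin receptor, was lower by at least 1.28-fold in T and by at least 1.13-fold in PT, Spry1, a feedback inhibitor of FGF receptor signalling, at least 1.83-fold and at least 1.62-fold lower, and the receptor phosphatase Ptprj 8.79-fold and 5.63-fold lower. Socs2, a feedback inhibitor of cytokine and growth hormone signalling, was 1.94-fold lower in T and 10.7-fold lower in PT. Stam, which sorts receptors for degradation and was chosen after its values were seen, was 4.33-fold higher in T and 6.40-fold higher in PT.

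Some markers of other cell types were also called against mVec. Of 9 measured fibroblast markers, 6 were lower and 1 higher in both lines. That is 77.8% called in either line, against 32.4% of all gene probe sets in T and 35.9% in PT. On each T array 2 of the 9 were above the limit, on the PT arrays 0 and 1, and on each mVec array 5. Their mean level was 6.52 and 6.58 on the T arrays, 6.18 and 6.28 on the PT arrays, and 10.05 and 10.11 on the mVec arrays. Postn, Dcn and Col1a1 were above the limit in mVec and at background in both Kit-labelled lines. Col1a2 went the other way, with means of 9.23 in T, 9.22 in PT and 5.07 in mVec (4.16 in T and 4.15 in PT, limma adjusted p = 3.88e-07 and 2.75e-07). Thy1 and Pdpn were at background throughout and not called. Of 8 smooth muscle and pericyte markers, 2 were lower in T and 3 in PT. That is 25% called in T and 37.5% in PT, against 32.4% and 35.9% of all gene probe sets. Mean levels were 5.75 to 5.76 in T, 5.12 to 5.34 in PT and 6.90 to 6.91 in mVec. Of the 8, 6 were at background in all lines, and the list medians were -0.24 in T and -0.39 in PT. The lower fibroblast markers share their direction with Pdgfrb and the other lower receptors by selection, since all were picked as lower than in mVec. Nothing is read from this. The part of either marker list in the receptor values was not tested. Of 9 endothelial markers, Cdh5 was above the limit in mVec (10.66) and at background in both Kit-labelled lines (-6.64 in T and -6.35 in PT). Eng was above the limit in all lines and not called, Plvap was called lower at background, and Pecam1, Vwf, Emcn, Esam, Cldn5 and Robo4 were at background on every array. The part of endothelial markers in the values of Flt1 was not tested. No leukocyte (8 measured), mast cell (8) or keratinocyte and epithelial marker (7) was above the limit on any array, and neither was any of 6 Schwann and neural crest markers. Of the last, Foxd3 was called lower in both lines, and in PT S100b was called lower and Ngfr higher. The share called was 16.7% in T and 50% in PT, against 32.4% and 35.9% of all gene probe sets. Of 14 RNA quality genes, 71.4% were called in either line, against 32.4% of all gene probe sets in T and 35.9% in PT. In this list, 3 genes were higher and 7 lower in both lines. Among them Fos was at background in both Kit-labelled lines and above it in mVec, and the part of RNA quality in the receptor values was not tested.

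For the 3 receptors with the widest range of group means, the probe sets most alike over the 6 arrays were found by the root mean square distance between values centred on their own means. Closest to Mertk were Hs6st2 (0.12), Mpped2 (0.13) and Arhgap31 (0.15 log2 units). Closest to Epha2 were Ccna2, a cyclin of the S and G2 phases (0.11), Troap (0.17) and Padi4 (0.17). Ccna2 differed from mVec by 3.84 in T and by 5.03 in PT, beside 3.77 and 5.11 for Epha2. Unlike Epha2, Ccna2 and Troap were at background in mVec, where Ccna2 read 8.38 and 8.15, and Padi4 was at background in every line. Closest to Ror1 were Phactr2 (0.12), Oas1b (0.16) and Kng2 (0.16). With 6 arrays in 3 groups, these distances rest almost wholly on 3 group means.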

How the data were processed

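Total RNA of the 3 lines was labelled with biotin and hybridized to Affymetrix Clariom S mouse arrays at a core facility, per the labels' protocols. The authors deposited expression values on a log2 scale, 1 for each probe set on each array. The unit was read from the values, and the software, background correction, normalization and genome build are not stated in the labels or the file. Of 28846 rows, the 22206 gene probe sets were tested without a filter. Genes were named from the platform annotation. It names 1 symbol for 19572 probe sets and none for 2634.

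The values were analysed as deposited with R 4.3.3 and limma 3.58.1, in 1 linear model with a mean per group over all 6 arrays (3 residual degrees of freedom, prior 6.36), two-sided, with Benjamini-Hochberg adjustment over all gene probe sets within a comparison. The fit was tested on simulated data. The background limit, the 95th percentile of the negative controls, follows an earlier analysis of these data. The receptors and gene lists were chosen with earlier results of these data known. Values on every array are given for receptors above the limit on both arrays of a group and called in a comparison, and from each list up to 4 genes of largest difference that meet these conditions. Exceptions made after the values were seen are Insr and Ddr2, both not called, and Epha3, Epha4 and Epha7, and among list genes those the text marks. Replicate numbers were not used as pairs. Alternatives were other scalings, variance models, filters, sample sets, left-out arrays and a replicate block.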

Additional observations from a re-analysis of the deposited data

Results flagged for a closer look

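By the limma test of T minus PT already given, the difference from mVec differed between the Kit-labelled lines for 2 of the 43 receptors. That is 4.65% of them, against 8.36% of all gene probe sets. Epha2 was raised less in T than in PT, by -1.35 (adjusted p = 0.00694, with a range of 0.00043 to 0.0533 over 16 alternatives), with both T arrays below both PT arrays. Erbb2 was lowered less in T than in PT, by 1.22 (adjusted p = 0.0122, range 0.00263 to 0.0946 over 16 alternatives), with both T arrays above both PT arrays and all 4 of these arrays at background. With 2 arrays per group, no group was searched for outlying arrays.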

How the results depend on the processing

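Of 51 single differences of receptors, 40 kept direction and call in every alternative, among them both differences from mVec of Epha2, Egfr, Erbb2, Met, Pdgfrb, Flt1, Fgfr1, Igf1r, Mertk and Ror1. The Insr difference in PT, 0.02, reversed to -0.15 under quantile normalization and ran from -0.092 to 0.136 when 1 array was left out. Centring each array on its median raised differences from mVec by 0.18 in T and 0.19 in PT. It moved the share of calls that were higher over all probe sets to 62.3%, from 52.3%, in T and to 60.3%, from 49.9%, in PT, and gave 5 higher receptors in PT, with Ret and Ltk added.

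Leaving out probe sets at background gave 1 higher and 12 lower receptors in T, and 1 higher and 11 lower in PT, since fewer were tested. Most of the 7836 probe sets kept were called under this filter as well, 5670 in T and 5962 in PT. The filter also gave 2 receptors higher in T than in PT, with 2471 probe sets called in that comparison. Keeping those above the median mean gave 1 higher receptor in T and 1 in PT. A minimum difference of 1 gave 1 higher receptor in T. Without 1 array, the higher receptors in T numbered 1 to 2, those higher in T than in PT 0 to 1, those lower than in PT 0 to 1, and the probe sets called between T and PT 549 to 1714, against 1857 with all arrays. The lowest, 549, came without PT replicate 1. A mean-variance trend gave 2 receptors higher and 2 lower in T than in PT. With the 99th percentile as limit, 6 receptors were above background in place of 15.

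The median gap between Eph and growth factor receptors was 3.14 in T, 4.01 in PT and -0.62 between T and PT for members above the limit, also when all other probe sets were left out. The Eph value there is the midpoint of 2 genes with opposite directions. All 8 growth factor receptors kept were above the limit in mVec, and 6 of them also in T and in PT. Egfr and Erbb2, like Ephb4, passed the filter through mVec alone, so nothing is read from this gap. It was 0.60 in T and 0.51 in PT above the median mean, and -1.75 in T under quantile normalization. Without 1 array it ran from -2.15 to -1.62 in T and from 0.054 to 0.17 between T and PT. Against all other receptors it was 0.17 between T and PT.

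With the replicate block, 18 receptors were lower and 2 higher in T and 19 and 3 in PT. The deviations of same-numbered arrays correlated at 0.0396, 0.0428 and 0.0823 across genes, so the numbers were not taken as pairs. Receptors have 1 probe set each, so averaging probe sets changes nothing. The number of arrays and the signal over background limit all values.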

Other observations

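Of 11 measured receptor tyrosine kinases outside the list, 9 were at background in all lines. Among the 11, which included Epha6, Epha8 and Epha10, only Lmtk2 was called against mVec by the limma test, higher in both lines, which is 9.09% of them, against 32.4% of all gene probe sets in T and 35.9% in PT. Lmtk2, a membrane kinase of the Lmtk family, averaged 9.92 in T, 10.72 in PT and 9.26 in mVec, a difference of 0.65 ± 0.22 in T (adjusted p = 0.0481) and 1.46 ± 0.22 in PT (adjusted p = 0.000472). Styk1, above background on all arrays, averaged 10.11 in T, 10.12 in PT and 9.95 in the mVec line and was not called.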
